A study of Mus musculus with 4 samples.

Results

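Neurexins, neuroligins and cerebellins are adhesion proteins of the synaptic cleft. The 8 genes described are 2 neurexins (Nrxn2 and Nrxn3), 3 neuroligins (Nlgn1, Nlgn2 and Nlgn3) and 3 cerebellins (Cbln1, Cbln2 and Cbln4), chosen by name from these families, of 43348 genes in the count matrices. Neurexins sit mainly in the presynaptic membrane and bind neuroligins across the cleft, and each neurexin gene gives long and short forms from separate promoters. Neuroligins are postsynaptic partners that recruit scaffolds and receptors, with Nlgn1 best known from excitatory synapses, Nlgn2 from inhibitory synapses and Nlgn3 from both. Cerebellins are secreted proteins that bridge neurexins to postsynaptic receptors.

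The study profiled interneurons born in the medial ganglionic eminence (MGE) and asked how they change when they lose Grin1. This gene encodes the obligate subunit of NMDA receptors. Cells carrying the Ai14 TdTomato reporter under Nkx2.1-Cre were sorted from frontal cortex and hippocampus of male and female mice at postnatal day 18 to 20 and sequenced from the 3′ end on the 10x platform. The groups are WT (Nkx2.1-Cre, Ai14, Grin1 wt/wt) and Grin1-null (Nkx2.1-Cre, Ai14, Grin1 fl/fl) littermates in each region, with 3 WT and 2 null libraries per region. All cells were dissociated and sorted in tetrodotoxin, APV and actinomycin D and each library pools animals.

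The libraries differ widely in depth. WT cortex libraries 1 to 3 hold 1277, 3851 and 3960 cells with 9306756, 14212183 and 28057207 UMIs, and WT hippocampus libraries hold 2221, 4600 and 3159 cells with 10555408, 8782181 and 20639002 UMIs. The null cortex libraries hold 181 and 2898 cells with 1488601 and 25688337 UMIs, and the null hippocampus libraries 404 and 4436 cells with 3856745 and 47338167 UMIs. The cell filter took more from null replicate 2 than from other libraries, leaving 2578 of 2898 cells in cortex and 4055 of 4436 in hippocampus, against 3930 of 3960 and 3135 of 3159 in the WT libraries that lost most cells. Null replicate 1 kept 177 of 181 cells in cortex and 401 of 404 in hippocampus. Replicate 1 was made with v2 chemistry and replicates 2 and 3 with v3. WT hippocampus replicate 2 stands apart with a median of 1479 UMIs per cell, against 4411 and 5741 in the other WT hippocampus libraries. In that library cluster 8 holds 72.5% of the SST class and cluster 16 holds 99.4% of neurogliaform cells, against at most 17.8% and 9.43% in the other WT libraries, so values that turn on it are also given without it. Libraries share 95 barcodes, at most 12 in any pair.

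Grin1 was lower in every null library. In somatostatin (SST) cells summed with the TH cells, it stood at 153, 255 and 233 CPM (UMIs of the gene where all UMIs of the class in that library are scaled to 1000000) in WT cortex and at 36.7 and 28.0 in null cortex. The hippocampal values were 118, 174 and 159 CPM in WT and 20.6 and 21.8 CPM in null libraries. The edgeR log2 change in these cells was -2.75 in cortex (SE 0.33, adjusted p = 0.0309) and -2.81 in hippocampus (SE 0.33, adjusted p = 0.0263). Neither passes the threshold of an adjusted p under 0.01, while DESeq2 calls Grin1 in both regions (adjusted p = 2.60e-12 and 9.45e-13). Where the deleted exons lie relative to the counted 3′ ends is not given in the sources used here.

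The class names held against their markers. Sst reached 15322 CPM in SST cells against 855 in PVALB cells, Pvalb 1592 CPM in PVALB cells against 60 in SST cells, and Lamp5 486 CPM in neurogliaform (NGFC) cells against 2.93 in PVALB cells. Of the 26201 cells kept, 42.2% were MGE interneurons and 29.9% mature oligodendrocytes. The tissue label is that of the sort, and the sort also held glutamatergic neurons, oligodendrocyte precursors, astrocytes and microglia.

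Levels are given per gene across classes, since counts from the 3′ end also depend on how well each gene's end is captured. Long and short neurexin forms share that end and are summed. Nrxn2 was broad. Its mean over WT libraries was 371 ± 17.8 CPM in SST cells (SD, n = 6), 381 ± 71.2 in TH cells (n = 5), 301 ± 26.8 in NGFC cells (n = 6) and 286 ± 29.7 in PVALB cells (n = 6). Oligodendrocyte precursors had the highest mean, 467 ± 166 CPM, which exceeds that of TH cells by less than 1 SD. Astrocytes (320 ± 45.3 CPM) and glutamatergic neurons (306 ± 102 CPM) lay among the interneuron classes, and of the neighbours in that stretch of the order only SST cells and astrocytes differed beyond their spread. The level was 86.6 ± 41.1 CPM in committed or newly formed oligodendrocytes and 67.9 ± 20.9 CPM in mature ones.

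Nrxn3 UMIs lay mostly in interneurons. MGE interneurons held 95% of them and 42.2% of the cells. Of all 35 clusters the highest pooled level, 989 CPM, was in unnamed cluster 18, whose 522 cells are shallow (median 657.5 UMIs), and unnamed cluster 31 stood at 404 CPM. The order ran from SST (753 ± 159 CPM, n = 6) through PVALB (488 ± 137), TH (426 ± 97.4, n = 5) and NGFC cells (397 ± 175) to glutamatergic neurons (161 ± 55.8, n = 5). SST cells exceeded PVALB cells in 6 of 6 libraries and by more than 1 SD, while PVALB, TH and NGFC cells did not differ beyond their spread. Oligodendrocyte precursors stood at 58.2 ± 22.2 CPM and mature oligodendrocytes at 6.19 ± 5.31 CPM. Among interneuron clusters the level was highest in SST cluster 4 (897 ± 143 CPM, n = 6) and lowest in NGFC cluster 3 (359 ± 168 CPM, n = 5). A Nrxn3 UMI was found in 89.4% of WT SST cells (median 6142 UMIs per cell) and 1.81% of mature oligodendrocytes (median 3464 UMIs). With cells thinned to 1000 UMIs these shares were 50.4% of 4114 and 0.540% of 4633 cells. Cells too shallow to thin (322 and 623) were left out, as in all thinned shares below.

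The neuroligins differed in the same way, with Nlgn1 selective and the other 2 broad. Nlgn1 had its highest means in oligodendrocyte precursors (128 ± 43.6 CPM, n = 6) and glutamatergic neurons (111 ± 20.3, n = 5). Within interneurons it graded from NGFC (88.2 ± 9.57 CPM, n = 6) over PVALB (45.4 ± 16.4, n = 6) and SST (23.9 ± 8.85, n = 6) to TH cells (3.64 ± 2.73, n = 5). PVALB exceeded SST cells in 6 of 6 libraries and by more than 1 SD, and mature oligodendrocytes (14.3 ± 2.20 CPM) exceeded TH cells in 5 of 5. That last order depends on the clustering: at resolution 0.6 the TH class holds 1389 cells in place of 694, and Nlgn1 stood at 17.7 CPM in it and at 15.8 CPM in mature oligodendrocytes. The SST class was itself uneven. Cluster 4 had 40.6 ± 12.0 CPM (n = 6) and cluster 10 had 24.2 ± 6.68 CPM (n = 5), while the shallow cluster 8 had 38.3 ± 39.4 CPM (n = 6, from 0 to 110), against 10.5 ± 6.17 in cluster 5 (n = 5), 3.20 ± 3.76 in cluster 25 (n = 3) and 1.65 ± 1.95 in cluster 22 (n = 4). A UMI of Nlgn1 was found in 31.8% of WT NGFC cells and 2.98% of TH cells, although TH cells were the deeper ones (medians of 3519 and 7057 UMIs). Thinned to 1000 UMIs the shares were 9.40% and 0.459%, and in mature oligodendrocytes, which hold little Nlgn1, 1.55%.

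**Figure D1:**
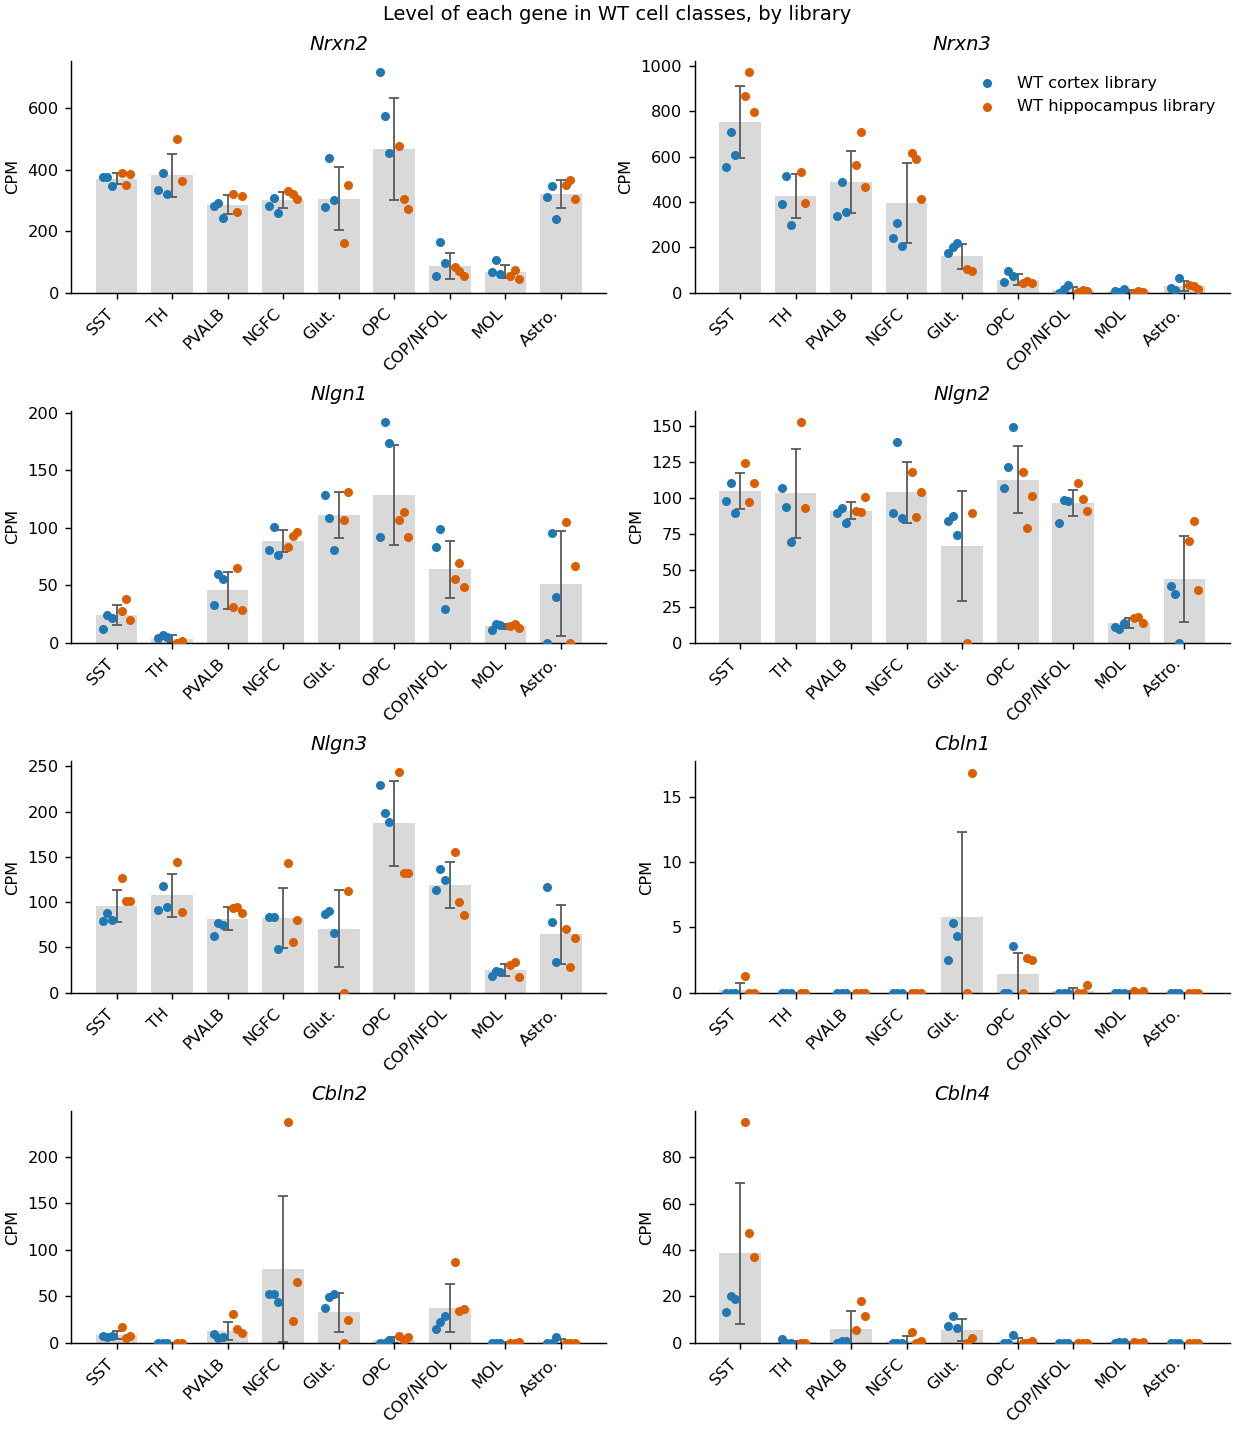
Level of each gene in CPM (vertical axes, each from 0) in 9 cell classes of WT libraries. Points are libraries with at least 10 cells of the class, grey bars their mean and error bars the SD. Nrxn3 and Cbln4 are highest in SST cells and Cbln2 in NGFC cells, where 1 hippocampus library lies at 237 CPM.

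Nlgn2, the neuroligin of inhibitory synapses, was close to even across interneurons and young oligodendrocyte lineage cells. Its WT means were 105 ± 12.6 CPM in SST, 104 ± 21.2 in NGFC, 103 ± 30.7 in TH and 91.3 ± 5.85 in PVALB cells. Oligodendrocyte precursors (113 ± 23.3 CPM) and committed or newly formed oligodendrocytes (96.7 ± 9.16 CPM) were in the same range, and no neighbours from precursors down to PVALB cells differed beyond their spread. Glutamatergic neurons stood at 67.1 ± 38.0 CPM (n = 5), below PVALB cells in 5 of 5 libraries but within the spread. Mature oligodendrocytes stood at 13.7 ± 3.32 CPM. Nlgn3 was highest in oligodendrocyte precursors (187 ± 47.1 CPM), above committed or newly formed oligodendrocytes (119 ± 25.2) in 6 of 6 libraries. Its interneuron means ran from 107 ± 23.9 CPM in TH cells (n = 5) to 81.7 ± 12.6 CPM in PVALB cells (n = 6), without a step beyond the spread, and mature oligodendrocytes had 24.7 ± 6.70 CPM.

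The cerebellins were scarce and each had its own place. Cbln1 gave 64 UMIs in 51 of all cells, 23 of them in glutamatergic neurons, 11 in oligodendrocyte precursors and 6 in MGE interneurons. It passed the filter on low counts in no comparison, so no change is given for it. Cbln2 was led by NGFC cells at 79.1 ± 78.5 CPM (n = 6), or 90.2 CPM without WT hippocampus replicate 2 and 47.6 CPM without replicate 1. The 6 libraries gave 52.5, 52.7 and 43.8 CPM in cortex and 237, 23.4 and 65.5 CPM in hippocampus, so 1 library at 237 CPM sets the SD. Committed or newly formed oligodendrocytes followed at 37.3 ± 25.5 CPM, with NGFC cells higher in 5 of 6 libraries but by less than 1 SD. In that class cluster 7, with 15.2% of all Cbln2 UMIs, had a mean of 56.3 ± 42.4 CPM over 5 WT libraries, which ran from 28.7 to 131 CPM. PVALB (12.9 ± 9.62 CPM) and SST cells (8.50 ± 4.40 CPM) were lower, and no Cbln2 UMI was seen in 436 WT TH cells, which allows a share of cells with a UMI of up to 0.873% (upper 95% Wilson bound). At resolution 0.6, in the wider TH class, it was 4.65 CPM.

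Cbln4 was concentrated in a single SST cluster. Of 2508 UMIs in all, cluster 4 held 81.5% with 5.74% of the cells, and all MGE interneurons held 92.5%. SST cells stood at 38.6 ± 30.5 CPM (n = 6), above PVALB cells (6.14 ± 7.38 CPM) in 6 of 6 libraries. Cluster 4 had 104 ± 52.8 CPM (n = 6), and the next SST cluster, the shallow cluster 8, had 22.0 ± 32.1 CPM (n = 6). The remaining SST clusters were at or below 1.69 CPM and TH cells at 0.289 CPM. A UMI was found in 8.93% of WT SST cells (2.55% when thinned), 1.59% of PVALB cells (0.248%) and 0.0951% of mature oligodendrocytes (0% when thinned, at a median of 3464 UMIs before). These classes and clusters were built from the same cells, and Nrxn3, Cbln2 and Cbln4 were among the 2000 features used, so differences between them are a description and were not tested.

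**Figure D2:**
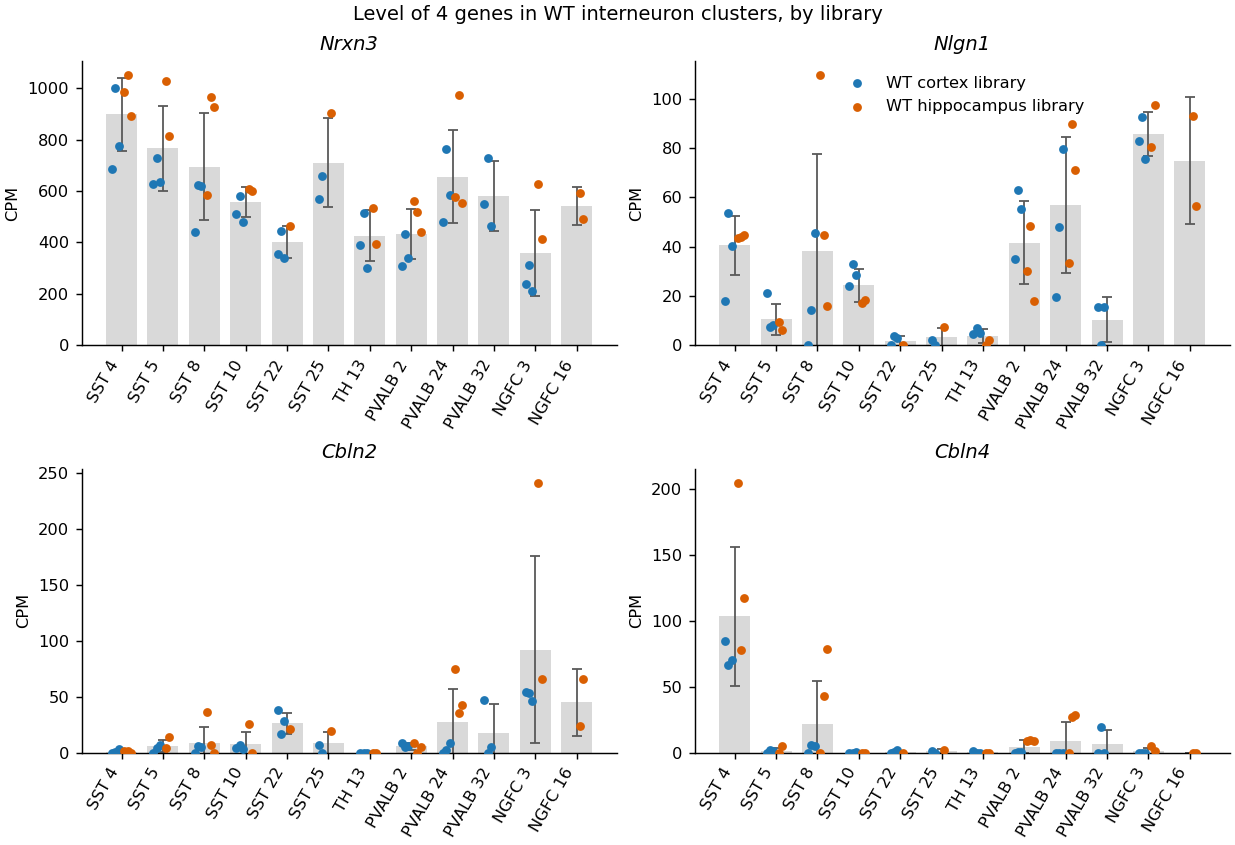
Level of Nrxn3, Nlgn1, Cbln2 and Cbln4 in CPM (vertical axes, each from 0) in the 12 clusters of WT MGE interneurons. Points are libraries, grey bars their mean and error bars the SD. Cbln4 is highest in SST cluster 4 and Nlgn1 is near 0 in SST clusters 22 and 25 and in TH cluster 13.

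Over 21 units of interneuron cluster by region in WT cells, each gene was compared with 11327 others by Pearson correlation of log2(CPM + 1). The units share libraries and differ in depth, so the coefficients are descriptive. Nrxn3 was most like Ncam1 (r = 0.79), Elfn1 (0.78) and Ccdc6 (0.78). For Nlgn1 the closest genes were Ociad2 (r = 0.86), Gadd45b (0.81) and Tox2 (0.81). Those of Cbln4 were Iqcj, Gpc6 and Grpr (each with r = 0.80), and Nrxn3 ranked 16 for Cbln4 with r = 0.66. Nrxn2 was closest to Wdr31 (r = 0.85), 4933431E20Rik (0.85) and Cdh8 (0.84), Nlgn2 to Gle1 (0.88), Hcfc1 (0.86) and Ldoc1l (0.85), and Nlgn3 to Spin1 (0.80), Gm12976 (0.77) and Tcaim (0.76). For Cbln2 they were 2410004I01Rik (0.79), Cuta (0.75) and 1110038B12Rik (0.73), while Cbln1 did not reach the required 10 CPM in any unit.

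The first comparison asked whether WT interneurons of the hippocampus differ from those of cortex. Cbln4 gave the largest difference of the 7 genes tested in SST cells. With TH cells included, it stood at 11.7, 18.9 and 16.9 CPM in cortex and at 81.3, 47.2 and 31.5 CPM in hippocampus for replicates 1, 2 and 3. All 3 hippocampus libraries lay above all 3 cortex libraries. The edgeR log2 difference, hippocampus minus cortex, was 1.69 (SE 0.37, adjusted p = 0.126), which is not called. With the replicate number as a block it was 1.58 (SE 0.28, adjusted p = 0.00168) and was called, as it was with DESeq2 (adjusted p = 0.00317) and without the filter on low counts (adjusted p = 0.00242). With any 1 library left out it ran from 1.25 to 1.95, and without WT hippocampus replicate 2 it was 1.72 (adjusted p = 0.142). Cluster 4, which carries the gene, made up 12.9, 23.1 and 20.3% of the class in cortex and 40.5, 19.0 and 20.9% in hippocampus. Within cluster 4 the libraries gave 85.1, 66.9 and 70.1 CPM in cortex and 205, 78.2 and 117 CPM in hippocampus, which overlap (two-sided exact permutation p = 0.2 over unpaired libraries, where 0.1 is the smallest possible). Hippocampus lay above cortex in each of the 3 pairs with the same replicate number.

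PVALB cells showed Cbln4 at a lower level. Most of them lay in cluster 2, with 82.3, 84.7 and 92.6% of the class in cortex and 72.2, 52.9 and 84.9% in hippocampus. It stood at 0, 0.725 and 0.607 CPM in cortex and at 5.68, 18.1 and 11.7 CPM in hippocampus, from 6 and 23 UMIs. These counts fall under the filter, so edgeR gave no value. Without the filter the log2 difference was 4.19 (SE 0.77, edgeR adjusted p = 4.06e-05) and was called. In the hippocampus libraries Cbln4 in PVALB cells was 5.98, 38.4 and 31.7% of its level in SST cells, where Sst was at 10.5, 2.64 and 24.9%. NGFC cells held 0 CPM in all WT cortex libraries and 4.69, 0 and 0.959 CPM in hippocampus, too few for a fold.

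Nrxn3 was higher in hippocampus in each class, with no call. Cluster 3 held 98.1, 96.4 and 94.2% of NGFC cells in cortex and 97.3, 0.579 and 90.6% in hippocampus. In NGFC cells it stood at 241, 309 and 208 CPM in cortex and 618, 589 and 414 CPM in hippocampus, with no overlap. The edgeR log2 difference was 1.14 (SE 0.31, adjusted p = 1), and the lowest adjusted p over the alternatives was 0.0325, with the replicate block. SST cells with TH cells gave 531, 698 and 578 CPM in cortex and 821, 973 and 740 CPM in hippocampus, without overlap, and a log2 difference of 0.44 (SE 0.23, adjusted p = 0.833). Within SST cluster 4 they overlapped, with 685, 999 and 773 CPM in cortex and 984, 1052 and 890 CPM in hippocampus (exact permutation p = 0.3). PVALB cells gave 339, 488 and 357 CPM in cortex and 565, 709 and 468 CPM in hippocampus, which overlap, with a log2 difference of 0.57 (SE 0.26, adjusted p = 1). Within PVALB cluster 2 they did not overlap, with 310, 432 and 341 CPM in cortex and 560, 517 and 442 CPM in hippocampus. The exact permutation p there was 0.1, the smallest possible, and within PVALB cluster 24, where they overlapped, it was 0.7. In each class and each replicate the hippocampus library lay above the cortex library of its number.

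Cbln2 also leaned to hippocampus. In PVALB cells it stood at 9.96, 4.71 and 6.37 CPM in cortex and at 31.2, 14.5 and 10.6 CPM in hippocampus, without overlap, and the edgeR log2 difference was 1.36 (SE 0.50, adjusted p = 0.916). Cluster 24 carried that difference, with 3.64 ± 4.40 CPM in cortex and 51.2 ± 21.0 CPM in hippocampus (3 libraries each, exact permutation p of 0.1, as low as this test can go). In NGFC cells the log2 difference was 1.15 (SE 0.68, adjusted p = 1) and rested on WT hippocampus replicate 1, without which it was -0.095. Of the remaining genes, Nlgn3 did not overlap between regions in SST and PVALB cells, with log2 differences of 0.32 (SE 0.22) and 0.36 (SE 0.24). In all, 3 of 7, 2 of 6 and 1 of 6 members tested did not overlap between regions in SST, PVALB and NGFC cells, each higher in hippocampus, beside 12.9, 8.8 and 6.74% of all genes tested.

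**Figure D3:**
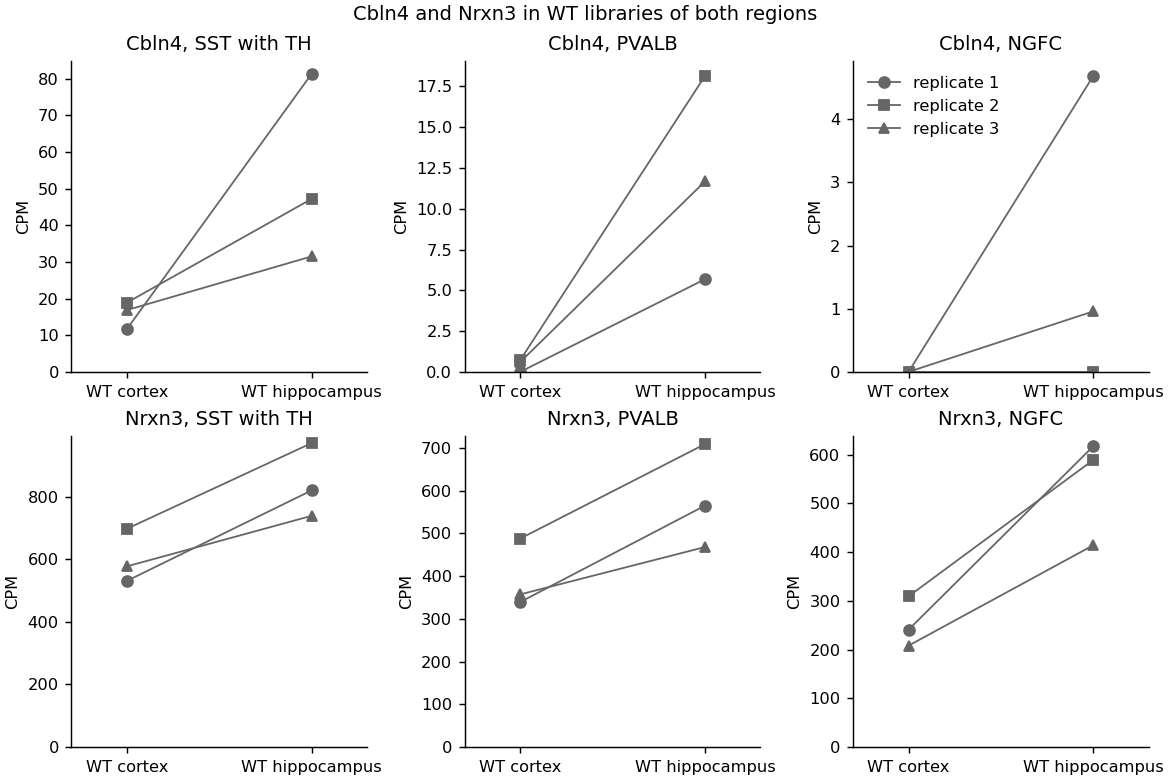
Cbln4 (upper) and Nrxn3 (lower) in CPM (vertical axes, each from 0) in the 3 WT libraries of cortex and of hippocampus, by class. Lines join libraries with the same replicate number. Cbln4 in SST cells runs from 11.7 to 18.9 CPM in cortex and from 31.5 to 81.3 CPM in hippocampus.

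Over all genes, the regions differed by edgeR at 5 of 11943 genes (0.0419%) for SST with TH, 4 of 8889 (0.045%) for PVALB and 0 of 7964 (0%) for NGFC, with 0 of the 7, 6 and 6 members tested. The 5 are Ctsc, Aga, Tenm2 and RP24-323H7.4, higher in hippocampus, and Sfrp2, lower, and the 4 are Lamp5, Ddit4l, Nrp1 and Rxfp3, all higher. These 9 genes are named after their values were seen. At an unadjusted p under 0.05 there were 901, 370 and 208 genes, among them 1 member in each class (Cbln4, Cbln2 and Nrxn3). DESeq2 called 142 (1.19%), 23 (0.259%) and 5 (0.0628%), the edgeR fit without the filter 160 (0.735%), 79 (0.41%) and 35 (0.195%), and the replicate block 352 (2.95%), 58 (0.652%) and 5 (0.0628%). Cbln4 was the member called in each of these fits for SST cells and, without the filter, for PVALB cells. The median log2 difference of the members tested was 0.43 in SST, 0.25 in PVALB and 0.32 in NGFC cells, beside 0.023, 0.016 and 0.015 over all genes tested.

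Markers of other cell types within the interneuron sums also differed between the regions. Summed over 5 mature oligodendrocyte markers (Mbp, Mog, Mag, Mobp and Opalin), SST cells with TH cells held 181, 226 and 133 CPM in cortex and 762, 802 and 492 CPM in hippocampus. PVALB cells held 87.8, 276 and 224 CPM in cortex and 494, 660 and 671 CPM in hippocampus, so in both classes the regions do not overlap. NGFC cells held 546, 67.1 and 686 CPM in cortex and 600, 1398 and 330 CPM in hippocampus, which overlap. Markers of committed or newly formed oligodendrocytes (Gpr17, Bmp4, Enpp6 and Bcas1) summed in SST cells with TH cells to 3.63, 6.24 and 13.5 CPM in cortex and 20.9, 110 and 44.2 CPM in hippocampus, also without overlap. Mature oligodendrocytes themselves held 0.215 CPM of Cbln4 and 6.19 CPM of Nrxn3, and committed or newly formed ones 0 and 11.7 CPM. Cbln2 and Nlgn3 stood at 0.165 and 24.7 CPM in mature oligodendrocytes and at 37.3 and 119 CPM in committed or newly formed ones, the latter above their means in PVALB (12.9 and 81.7 CPM) and SST cells (8.50 and 96.1 CPM). Over 5 astrocyte markers (Aqp4, Gja1, Slc1a3, Aldoc and Slc1a2, with Aldoc the most abundant and none at 0 in all libraries), SST cells with TH cells summed to 55.4, 51.5 and 51.8 CPM in cortex and 78.0, 168 and 105 CPM in hippocampus, without overlap. TH cells, which are part of these sums, held Aldoc at 115 CPM against 15.7 CPM in SST cells, and Aqp4 at 0 CPM. The sums are therefore not a measure of astrocyte RNA alone. In PVALB cells the same sums were 54.3, 60.9 and 36.3 CPM and 125, 72.6 and 59.5 CPM, which overlap. Over 5 precursor markers (Pdgfra, Cspg4, Vcan, C1ql1 and Olig2) the sums in SST cells with TH cells were 4.97, 5.46 and 9.06 CPM in cortex and 16.5, 42.8 and 14.9 CPM in hippocampus. Those in PVALB cells were 48.9, 84.9 and 59.2 CPM and 185, 142 and 88.1 CPM, so the regions do not overlap in either class. C1ql1 was the most abundant of them in PVALB cells and is among the leading genes of PVALB cluster 24. That cluster made up 10.6, 13.2 and 4.69% of PVALB cells in cortex and 27.8, 45.4 and 12.8% in hippocampus. The sum in PVALB cells is therefore not a measure of precursor RNA alone. Precursors held the most Nlgn3 of any class, 187 CPM. The 7 NGFC markers, with Hapln1 the most abundant, also did not overlap in PVALB cells, at 201, 161 and 158 CPM in cortex and 449, 332 and 243 CPM in hippocampus. The paper reports Hapln1 in a PVALB subtype too. The part of RNA from other cells in the differences of the members between regions was not tested.

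Of 31 partner genes (ligands of neurexins, cerebellin receptors, inhibitors of neuroligins and scaffolds), 28 were tested between regions in SST, 24 in PVALB and 20 in NGFC cells, and edgeR called 0. In SST cells the 3 with the largest differences were the neurexophilin Nxph2 (log2 1.06, SE 0.38), the latrophilin Adgrl2 (1.04, SE 0.39) and Ca10 (0.68, SE 0.24), a secreted neurexin ligand. Adgrl2 was called with the replicate block (1.07, adjusted p = 0.00195). In PVALB cells Lrrtm1, a postsynaptic neurexin ligand, differed by 1.29 (SE 0.32) and Nxph2 by 1.01 (SE 0.39). In NGFC cells the largest were those of Lrrtm3 (-1.13, SE 0.35), Lrrtm1 (0.77, SE 0.31) and Ca11 (-0.60, SE 0.36). The median log2 difference of the partners was 0.19, 0.15 and 0.039 in the 3 classes.

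The second comparison asked what the loss of Grin1 changes within each class and region. In cortex as in hippocampus, edgeR called no gene: 0 of 12816 (0%) for SST with TH, 0 of 9783 (0%) for PVALB and 0 of 9997 (0%) for NGFC, with 7 members tested in each. At an unadjusted p under 0.05 there were 277 and 457 genes in SST, 353 and 297 in PVALB and 152 and 318 in NGFC cells for cortex and hippocampus. DESeq2 called 2 and 2, 14 and 1, and 0 and 1 genes, none of them a member. The replicate block in PVALB cortex and the fits without the filter on low counts also called genes, none of them a member. Their counts are given with the processing. The NGFC contrast in cortex rests on 1 null library, since the other holds 4 such cells, and its spread is taken from the other groups. For PVALB cells, null replicate 1 holds 28 cells in cortex and 33 in hippocampus.

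Cbln4 had the lowest p of the members. In SST cells with TH cells, null cortex stood at 48.9 and 28.0 CPM against 11.7, 18.9 and 16.9 CPM in WT, with both null libraries above all WT libraries. The edgeR log2 change was 1.23 (SE 0.40, unadjusted p = 0.00937, adjusted p = 1), and 0.80 without null cortex replicate 1. Cluster 4 made up 18.2 and 12.4% of the class in null cortex. Astrocyte markers, summed as above, stood at 102 and 101 CPM in null cortex against 55.4, 51.5 and 51.8 CPM in WT, also without overlap, and at 170 and 137 CPM against 78.0, 168 and 105 CPM in hippocampus, which overlap. TH cells, part of these sums, hold Aldoc at 115 CPM, so the sums are not a measure of astrocyte RNA alone. The part of RNA from other cells in the genotype differences was not tested. Within cluster 4, null cortex gave 151 and 254 CPM from 20 and 89 cells, also above the WT values of 66.9 to 85.1 CPM. In hippocampus the null libraries held 66.9 and 86.2 CPM and overlapped WT, with a log2 change of 0.56 (SE 0.38, adjusted p = 0.973). The difference of the 2 changes, hippocampus minus cortex, was -0.66 (SE 0.56, adjusted p = 1). PVALB cells held Cbln4 at 0 and 8.37 CPM in null hippocampus against 5.68, 18.1 and 11.7 CPM in WT. In cortex they held 0 and 1.77 CPM in null against 0, 0.725 and 0.607 CPM in WT libraries. The genotypes overlapped in PVALB cells of both regions.

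In SST cells 4 of the 7 members tested did not overlap between genotypes in cortex (1 above and 3 below WT) and 2 in hippocampus (both below). Over all genes tested, groups of 2 and 3 libraries did not overlap at 16.2 and 17.4% of genes. In PVALB cells these were 2 members in each region, beside 19.9 and 14.3% of all genes, and in NGFC cells 2 members in cortex, with 1 null library, beside 40.2%, and 1 in hippocampus beside 19.1%. Little can be read from such an order alone. Nlgn2 and Nlgn3 were lower in each null SST library than in any WT library of its region. Nlgn2 in cortex stood at 99.2, 109 and 87.4 CPM in WT and 74.4 and 70.5 CPM in null libraries, a log2 change of -0.44 (SE 0.24, edgeR adjusted p = 1). Its hippocampal values were 129, 97.4 and 108 CPM in WT and 96.0 and 86.7 CPM in null libraries, a change of -0.26 (SE 0.24, adjusted p = 0.973). Nlgn2 kept this order in PVALB cells too, with log2 changes of -0.14 in both regions (SE 0.25 and 0.26). Nlgn3 in SST hippocampus stood at 129, 101 and 99.3 CPM in WT and 77.1 and 86.2 CPM in null libraries, a log2 change of -0.40 (SE 0.23, adjusted p = 0.973). In SST cortex the Nlgn3 values were 80.6, 90.2 and 82.1 CPM against 75.5 and 75.5 CPM, a change of -0.15 (SE 0.23, adjusted p = 1). Nlgn3 in PVALB hippocampus had the same order as in SST cells, 93.7, 94.3 and 88.1 CPM in WT against 61.0 and 78.5 CPM in null libraries, with a log2 change of -0.38 (SE 0.27, adjusted p = 1). None of these changes passes the threshold. Nlgn3 overlapped in PVALB cortex and in NGFC cells of both regions, and Nlgn2 overlapped in NGFC hippocampus. In NGFC cortex, with 1 null library, Nlgn2 lay below WT. Markers named for other classes also separated the genotypes in the SST and PVALB sums, and their part was not tested. In SST hippocampus the 7 PVALB markers, with Kcnc1 the most abundant, summed to 968 and 905 CPM in null and 665, 635 and 855 CPM in WT libraries. SST and TH cells themselves hold Kcnc1 at 236 and 400 CPM, and TH cells hold Tac1 at 1229 and Pvalb at 551 CPM. That sum is therefore not a measure of PVALB RNA alone. PVALB cells hold less Nlgn2 and Nlgn3 than SST cells (91.3 and 81.7 CPM against 105 and 96.1). In PVALB hippocampus the 5 mature oligodendrocyte markers summed to 394 and 239 CPM in null and 494, 660 and 671 CPM in WT libraries. In PVALB cortex the NGFC markers summed to 404 and 527 CPM in null and 201, 161 and 158 CPM in WT libraries. Hapln1 was the most abundant of them, and the paper reports it in a PVALB subtype too. Cluster 32 made up 25 and 22.9% of PVALB cells in null cortex against 7.09, 2.13 and 2.72% in WT cortex. This sum is therefore not a measure of NGFC RNA alone. The make-up of the SST class did not move 1 way with genotype in cortex: cluster 13 held 5.45 and 23.1% of null against 15.1, 6.49 and 10.6% of WT libraries, and cluster 22 held 2.73 and 20.4% against 5.31, 11.3 and 3.70%. Within cluster 4 of cortex both genes overlapped: Nlgn2 at 93.3 and 97.8 CPM in null against 97.0, 111 and 89.0 CPM in WT libraries, and Nlgn3 at 86.1 and 78.1 CPM against 73.2, 95.4 and 77.7 CPM. In cluster 4 of hippocampus the null libraries lay below WT for both, with Nlgn2 at 100 and 84.0 CPM against 118, 125 and 109 CPM, and Nlgn3 at 77.9 and 87.8 CPM against 128, 103 and 130 CPM. Cluster 10 ran the other way round. In cortex its null libraries lay below WT for both, with Nlgn2 at 71.4 and 67.3 CPM against 103, 115 and 98.3 CPM, and Nlgn3 at 63.4 and 70.8 CPM against 84.6, 81.0 and 83.0 CPM. In hippocampus, with 2 WT libraries holding enough of its cells, both overlapped: Nlgn2 at 139 and 73.2 CPM against 144 and 95.5 CPM, and Nlgn3 at 69.3 and 67.8 CPM against 101 and 55.3 CPM. In cluster 8 of cortex Nlgn2 lay below WT (39.6 and 51.3 CPM, from 2 and 6 UMIs, against 120, 119 and 132 CPM). Nlgn3 overlapped there (79.1 and 68.5 CPM against 40.0, 82.3 and 112 CPM), and in cluster 8 of hippocampus both overlapped. In cluster 5 of cortex both overlapped. Nlgn2 was at 63.8 and 92.7 CPM against 131, 117 and 88.9 CPM. Nlgn3 was at 63.8 and 89.9 CPM against 79.3, 89.4 and 83.1 CPM. In cluster 5 of hippocampus 1 null library held enough cells and lay below WT for both. Its values were 98.6 CPM for Nlgn2 against 112 and 118 CPM, and 91.1 CPM for Nlgn3 against 168 and 101 CPM.

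Nrxn2 in null cortex lay below WT in 1 class and above it in another. SST cells with TH cells gave 369, 376 and 344 CPM in WT and 324 and 335 CPM in null libraries, and PVALB cells gave 283, 293 and 243 CPM in WT and 329 and 302 CPM in null libraries. The log2 changes were -0.13 (SE 0.22) and 0.22 (SE 0.26), each smaller than its SE. The classes also held different clusters by genotype. Cluster 32, where Nrxn2 is high (500 ± 127 CPM, 3 WT libraries), made up 25 and 22.9% of PVALB cells in null cortex against 7.09, 2.13 and 2.72% in WT cortex, and within cluster 2 null (302 and 297 CPM) and WT libraries (281, 298 and 245 CPM) overlapped. Within SST cluster 4 the null libraries (373 and 411 CPM) lay above WT (334, 366 and 319 CPM), opposite to the class, and within cluster 10 (357 and 363 CPM) below WT (466, 419 and 415 CPM). Nrxn3 was lower in null NGFC cells of hippocampus (354 and 362 CPM against 618, 589 and 414), with a log2 change of -0.60 (SE 0.32, edgeR adjusted p = 0.953). Precursor markers there were also lower, at 46.5 and 109 CPM against 115, 176 and 151 CPM. Vcan was the most abundant of them. NGFC cells held Vcan, Pdgfra and Cspg4 at 109, 1.87 and 0.467 CPM, and precursors at 513, 879 and 344 CPM. This sum is therefore not a measure of precursor RNA alone, and the part of such RNA was not tested. Cbln4 in NGFC hippocampus stood at 12.9 and 1.68 CPM in null libraries (10 and 15 UMIs) and at 4.69, 0 and 0.959 CPM in WT, which overlap. Its log2 change was 1.90 (SE 1.47, edgeR adjusted p = 0.953). It was 3.04 without WT hippocampus replicate 1 and 3.02 without null hippocampus replicate 2. Counts of Cbln4 in WT NGFC cells alone were too few for a fold, so this value is not ranked among the members. Nlgn1 and Cbln2 overlapped between genotypes in SST and PVALB cells of both regions. The median log2 change of the members tested was -0.13 in cortex and -0.16 in hippocampus for SST cells, beside -0.017 and -0.0345 over all genes tested. For PVALB cells it was 0.10 in cortex, with 5 of 7 higher, and -0.14 in hippocampus, beside -0.0057 and -0.013, and for NGFC cells -0.225 and -0.20, beside -0.0085 and -0.071.

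**Figure D4:**
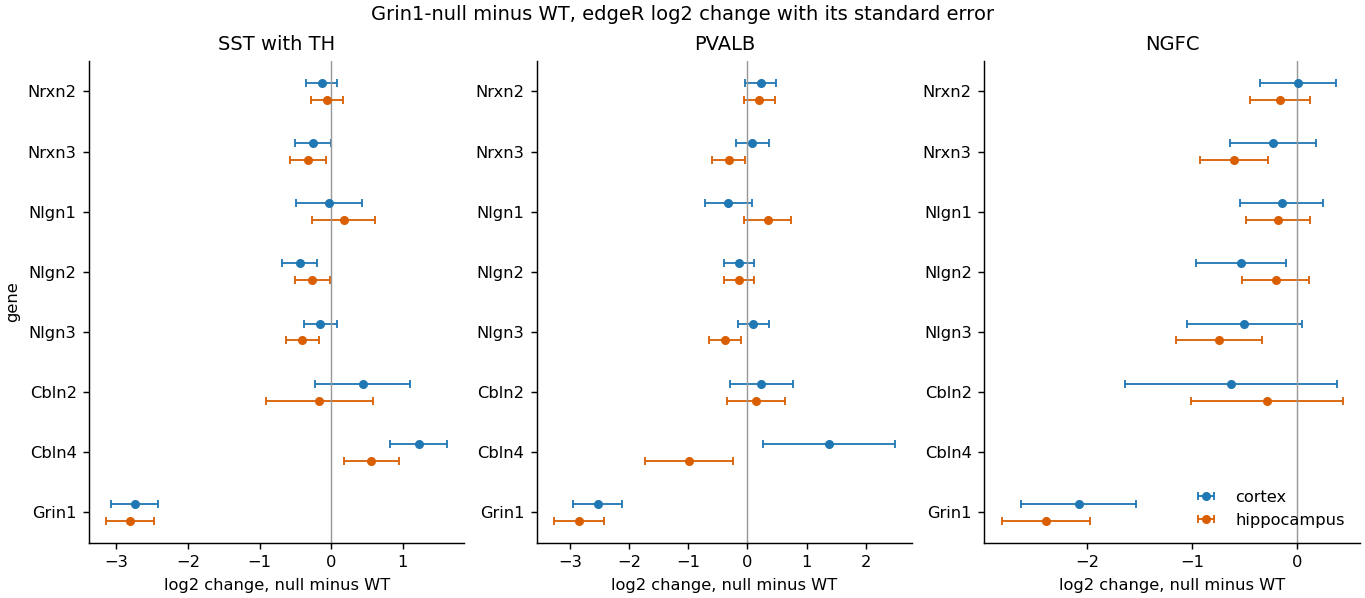
Log2 change, null minus WT (horizontal axes), of 7 members and Grin1 in 3 classes, with points for edgeR estimates and bars for their SE. Cbln4 in NGFC cells and Cbln1 in all classes are not drawn. Grin1 lies between -2.08 and -2.85 and none of the members drawn lies as far from 0.

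The genotype change was not called to differ between regions for any gene by edgeR (0 of 12816, 9783 and 9997, 0% each) or by DESeq2, and 66, 105 and 42 genes had an unadjusted p under 0.05 in SST, PVALB and NGFC cells. Among members the lowest unadjusted p was 0.102, for Cbln4 in PVALB cells, where cortical counts are near 0. Of the partner genes 28 were tested in SST, 25 in PVALB and 24 in NGFC cells, and edgeR called 0 in either region. In SST cells the secreted C1q family protein C1ql3 had the largest change in cortex (log2 -2.10, SE 0.66, unadjusted p = 0.00768, adjusted p = 1) and in hippocampus (-1.74, SE 0.68, adjusted p = 0.973). Nxph3 (0.63, SE 0.66, and 0.98, SE 0.79) and Adgrl3 (-0.61, SE 0.51, and -1.02, SE 0.52) were the next in both regions. The sign for Nxph3 rests on 1 library in each region: it was -0.59 without null cortex replicate 2 and -0.12 without null hippocampus replicate 1. The 3 partners with the largest changes in PVALB cortex were Grid1 (0.85, SE 0.44), Lrrtm1 (0.84, SE 0.35) and Magi2 (-0.65, SE 0.31), and in PVALB hippocampus Adgrl3 (-0.66, SE 0.48), Nxph2 (-0.46, SE 0.43) and Ca10 (-0.45, SE 0.64). With a library left out, Lrrtm1 in PVALB cortex ran from 0.0060 to 1.08, and in hippocampus Adgrl3 ran from -0.99 to -0.013, Nxph2 from -0.73 to 0.073 and Ca10 from -0.92 to 0.61. Nxph2 turned without WT replicate 1, and Ca10 turned without WT replicate 3, without null replicate 2 and in replicates 1 and 2 alone (0.63). In NGFC cortex they were Nxph2 (-1.03, SE 1.90, and 0.31 with the replicate block), Adgrl3 (-0.91, SE 0.78) and Grid1 (0.80, SE 0.70). In NGFC hippocampus Nxph2 was at -1.21 (SE 1.01, from -2.08 to 0.94 with a library left out) and Adgrl3 at -0.98 (SE 0.59). For the difference between regions the named partners were Nxph2 (-0.89), Adgrl2 (-0.55) and Lin7a (0.54) in SST, Lrrtm1 (-1.05), Grid1 (-0.74) and Gphn (-0.54) in PVALB, and Grid1 (-0.97) and Lrrtm4 (-0.54) in NGFC cells. Lin7a in SST cells turned in sign at resolution 0.6.

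In the annotation (GENCODE vM21, build GRCm38) the 8 genes lie on 8 chromosomes, so no 2 of them are neighbours. Nrxn3 spans 1612 kb at chr12:88722876-90334935 on the plus strand and Nlgn1 spans 906 kb at chr3:25426215-26332460 on the minus strand. Nrxn2 (chr19:6418731-6544169, plus) and Nlgn3 (chrX:101299168-101325963, plus) span 125 and 26.8 kb, and Nlgn2 spans 14.7 kb at chr11:69823122-69837784 (minus). The cerebellins span 4.21 to 7.23 kb, with Cbln1 at chr8:87468405-87472609 (minus) and Cbln4 at chr2:172036233-172043466 (minus).

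Promoter windows of 4 members were matched by symbol in the RefSeq table of build GRCm38.p6. Those of Cbln4, with 81.5% of its UMIs in 1 cluster, and Nlgn2, the most even gene among interneurons, are shown on the minus strand from 250 bases before to 50 bases after the start, with CG dinucleotides in capitals.
Cbln4, chr2:172043417-172043716: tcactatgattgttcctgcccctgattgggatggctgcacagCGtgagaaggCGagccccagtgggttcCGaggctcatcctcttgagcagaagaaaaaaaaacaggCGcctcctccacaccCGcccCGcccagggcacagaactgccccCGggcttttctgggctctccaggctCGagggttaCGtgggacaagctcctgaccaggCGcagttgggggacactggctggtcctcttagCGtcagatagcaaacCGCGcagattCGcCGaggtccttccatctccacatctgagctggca
Nlgn2, chr11:69837735-69838034: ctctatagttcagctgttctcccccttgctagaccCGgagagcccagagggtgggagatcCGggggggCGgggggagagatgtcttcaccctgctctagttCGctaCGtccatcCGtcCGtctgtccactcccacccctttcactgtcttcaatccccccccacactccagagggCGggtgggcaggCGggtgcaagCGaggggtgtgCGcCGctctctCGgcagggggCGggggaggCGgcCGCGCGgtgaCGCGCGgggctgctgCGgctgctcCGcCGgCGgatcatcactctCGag
CG (the same letters on both strands) occurs 15 times in the window of Cbln4 and 26 times in that of Nlgn2, against a median of 7 over 32851 windows of this length, of which 94.6% hold at least 1. As many as in the Cbln4 window were found in 34.6% of windows and as many as in the Nlgn2 window in 16.9%.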

How the data were processed

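UMI counts of single cells were deposited in 1 matrix per region and genotype, made by the authors with Cell Ranger (2.1.1 per the labels, 3.0.2 per the file headers) on mm10 with gene ends extended by 4 kb. Barcode suffixes separate 10 libraries. Reads may have been equalised between pooled libraries before counting. From these counts, 26201 of 26987 cells passed the filter (200 to 6000 genes, mitochondrial share below 30%) and were integrated in Seurat 5.3.0 (R 4.3.3, 2000 features, 25 dimensions) and put in 35 clusters at resolution 1.0. Clusters were named by marker genes. No doublet caller was used for the results given, and Scrublet marked 249 cells (0.95%) for an alternative.

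UMIs were summed per library and class where at least 10 cells were present, and tested in edgeR 4.0.16 (quasi-likelihood, TMM, filterByExpr, Benjamini-Hochberg). A gene was called at adjusted p < 0.01 if its change also reached 0.144 in log2 (0.1 on the natural-log scale). DESeq2 1.42.0 was an alternative. The share of genes tested whose libraries did not overlap in CPM between 2 groups was added after the data were seen. CPM, means and Wilson intervals came from Python 3.11.15 (numpy 2.4.6, scipy 1.17.1, statsmodels 0.14.6, scanpy 1.11.5, pandas 2.3.3). The edgeR fits were tested on simulated data.

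Replicate numbers come from the methods and mark chemistry. After the region means were removed, same-numbered WT libraries correlated with r of 0.69, 0.62 and 0.40 in SST, 0.55, 0.57 and 0.33 in PVALB and 0.59, 0.47 and 0.22 in NGFC sums, so the numbers were taken to pair the regions. Cortex replicate 3 also correlated with hippocampus replicate 2, with r of 0.19, 0.13 and 0.21, so the pairing of replicate 3 is less certain. Among the other pairs of unlike number the highest r was 0.01.

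The members and lists were chosen with earlier results of these data known. Named are all 8 members, Grin1, partner genes called in a comparison or else among the 3 with the largest change, and the 3 genes most correlated with each member.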

Additional observations from a re-analysis of the deposited data

Results flagged for a closer look

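Nrxn2 in cortex was picked out because every null library lay below every WT library in SST cells with TH cells (log2 change -0.1297) and above every WT library in PVALB cells (log2 change 0.224). The difference between the 2 classes was not tested. Null cortex held 28 and 258 PVALB cells. Cluster 32 made up 25 and 22.9% of them against 7.09, 2.13 and 2.72% in WT cortex. Within PVALB cluster 2 the genotypes overlapped (302 and 297 CPM in null, 281, 298 and 245 CPM in WT libraries), and within SST cluster 4 null lay above WT (373 and 411 CPM against 334, 366 and 319 CPM).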

How the results depend on the processing

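Of 2570 log2 values of 127 gene changes under the alternatives, 2456 kept the direction and 114 did not, 71 of these with a library left out. Of 608 class levels under the alternatives, 7 moved beyond their spread. A member was called in 4 of 245 further fits, each time Cbln4. Low counts limit Cbln1, Cbln2 and Cbln4, and groups of 2 or 3 libraries may leave small changes undetected. Leaving out 1 of 2 null libraries assumes that the other varies like the remaining groups. Cbln4 in NGFC cells gave no change in cortex, where both groups hold at most 3 UMIs.

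Genes called were, by alternative, as follows, and the cause was not tested. DESeq2 called 2 in SST cortex, 2 in SST hippocampus, 142 between regions in SST, 14 in PVALB cortex, 1 in PVALB hippocampus, 23 between regions in PVALB, 1 in NGFC hippocampus and 5 between regions in NGFC. An adjusted p under 0.05 gave 1, 1 and 35 in SST (cortex, hippocampus, between regions) and 8 in PVALB cortex and 8 between regions in PVALB. No filter on low counts gave 22, 19, 1 and 160 in SST (cortex, hippocampus, genotype by region, between regions), 59, 19, 4 and 79 in PVALB, and 4 in cortex, 22 in hippocampus and 35 between regions in NGFC. The replicate block gave 352 between regions in SST, 4 in PVALB cortex, 58 between regions in PVALB and 5 in NGFC, and among members and partners changed no call but those of Cbln4 and Adgrl2. Replicates 1 and 2 alone gave 0 between regions in SST and 0 in PVALB. Between regions in SST, resolution 0.6 gave 3, resolution 1.4 gave 8, members and partner genes out of the features gave 3, doublets removed gave 3, and the low-depth SST cluster left out, an alternative chosen after seeing the data, gave 3. In PVALB cortex, resolution 0.6 gave 1, members and partner genes out of the features gave 2 and only the 2 groups compared gave 12, and the stricter cell filter gave 2 between regions in PVALB. With a library left out, counts ran from 0 to 5 between regions in SST, 0 to 6 in PVALB cortex and 0 to 0 between regions in PVALB.

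At resolution 0.6, mean CPM was 17.7 for Nlgn1 in TH cells, 108 for Nlgn2 and 156 for Nlgn3 in committed or newly formed oligodendrocytes, 18.4 for Nlgn2 and 1.46 for Cbln2 in mature ones, 0.751 for Cbln1 in SST and 4.65 for Cbln2 in TH cells. Thinned to 1000 UMIs, cells with a UMI made up 50.4% (SST) and 0.540% (mature oligodendrocytes) for Nrxn3, 9.40, 4.46, 1.99 and 0.459% (NGFC, PVALB, SST, TH) for Nlgn1, 6.74 and 4.74% (NGFC, committed or newly formed oligodendrocytes) for Cbln2, and 2.55 and 0.248% (SST, PVALB) for Cbln4.

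Log2 values that changed sign follow, each against the value reported, and the cause was not tested. With DESeq2, Nlgn1 in SST cortex was 0.012 against -0.031, Nlgn2 in PVALB genotype by region was -0.012 against 0.0010 and Nrxn2 in NGFC cortex was -0.022 against 0.010. Without the marked doublets, Cbln2 in SST hippocampus was 0.045 against -0.16, Nlgn2 in PVALB genotype by region was -0.0094 against 0.0010 and Nlgn1 in NGFC genotype by region was 0.027 against -0.033. With library-size scaling, Nlgn2 in NGFC region was -0.019 against 0.017. With the members and partner genes left out of the clustering features, Nlgn2 in PVALB genotype by region was -0.012 against 0.0010 and Cbln2 in PVALB genotype by region was 0.039 against -0.091. Without the filter on low counts, Grin1 in SST genotype by region was 0.013 against -0.064, Nrxn2 in SST region was -0.059 against 0.0080 and Nrxn2 in PVALB genotype by region was 0.045 against -0.022. There, Nlgn2 in PVALB region was -0.016 against 0.099 and Nlgn1 in NGFC genotype by region was 0.014 against -0.033. With only the 2 groups compared in the fit, Nrxn2 in NGFC cortex was -0.0091 against 0.010. With the replicate block, Nrxn3 in PVALB cortex was -0.022 against 0.082, Nrxn2 in NGFC cortex was -0.067 against 0.010 and Cbln2 in NGFC cortex was 0.081 against -0.63. There, Nxph2 in NGFC cortex was 0.31 against -1.03, Nlgn1 in NGFC genotype by region was 0.074 against -0.033 and Cbln2 in NGFC genotype by region was -0.26 against 0.34. In replicates 1 and 2 alone, Nlgn1 in SST cortex was 0.071 against -0.031, Nlgn1 in SST hippocampus was -0.11 against 0.18 and Nlgn1 in SST genotype by region was -0.18 against 0.21. There, Nrxn2 in SST region was -0.017 against 0.0080, Cbln2 in PVALB hippocampus was -0.25 against 0.15 and Ca10 in PVALB hippocampus was 0.63 against -0.45. In that fit, Nrxn2 in PVALB genotype by region was 0.073 against -0.022, Nlgn1 in PVALB region was 0.12 against -0.25 and Nrxn2 in NGFC cortex was -0.032 against 0.010. Likewise, Nlgn1 in NGFC genotype by region was 0.075 against -0.033 and Nlgn2 in NGFC region was -0.083 against 0.017. At resolution 0.6, Lin7a in SST genotype by region was -0.10 against 0.54, Grin1 in SST genotype by region was 0.013 against -0.064 and Nrxn3 in PVALB cortex was -0.084 against 0.082. There, Cbln2 in PVALB cortex was -0.29 against 0.24, Nrxn2 in PVALB genotype by region was 0.093 against -0.022 and Nlgn2 in PVALB genotype by region was -0.042 against 0.0010. In that fit, Cbln2 in PVALB genotype by region was 0.43 against -0.091. At resolution 1.4, Nlgn1 in SST cortex was 0.071 against -0.031, Cbln2 in SST hippocampus was 0.058 against -0.16 and Nrxn2 in PVALB genotype by region was 0.015 against -0.022. Under the stricter cell filter, Nlgn1 in NGFC genotype by region was 0.072 against -0.033.

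With each library left out in turn, these changed sign in at least 1 fit. In SST cortex, Nlgn1 ran from -0.45 to 0.47, Cbln2 ran from -2.42 to 0.94 and Nxph3 ran from -0.59 to 0.94. In SST hippocampus, Nlgn1 ran from -0.42 to 0.60, Cbln2 ran from -1.34 to 0.88 and Nxph3 ran from -0.12 to 2.05. In SST genotype by region, Nrxn3 ran from -0.24 to 0.12, Nlgn1 ran from -0.41 to 0.65, Cbln2 ran from -1.76 to 2.26 and Grin1 ran from -0.30 to 0.15. In SST region, Nrxn2 ran from -0.040 to 0.036 and Cbln2 ran from -0.11 to 0.64. In PVALB cortex, Nrxn3 ran from -0.050 to 0.24 and Cbln4 ran from -3.29 to 1.55. In PVALB hippocampus, Nrxn2 ran from -0.017 to 0.43, Nlgn1 ran from -0.037 to 0.87, Cbln2 ran from -0.22 to 0.61, Nxph2 ran from -0.73 to 0.073 and Ca10 ran from -0.92 to 0.61. In PVALB genotype by region, Nrxn2 ran from -0.23 to 0.23, Nlgn2 ran from -0.035 to 0.068, Cbln2 ran from -0.46 to 0.37, Cbln4 ran from -8.82 to 2.29 and Grin1 ran from -0.88 to 0.029. In PVALB region, Nlgn1 ran from -0.78 to 0.013. In NGFC cortex, Nrxn2 ran from -0.034 to 0.039. In NGFC hippocampus, Cbln2 ran from -1.28 to 0.93 and Nxph2 ran from -2.08 to 0.94. In NGFC genotype by region, Nlgn1 ran from -0.17 to 0.13, Nlgn3 ran from -0.46 to 0.17, Cbln2 ran from -0.64 to 1.56 and Grin1 ran from -0.89 to 0.32. In NGFC region, Nlgn2 ran from -0.096 to 0.25, Nlgn3 ran from -0.011 to 0.66 and Cbln2 ran from -0.095 to 1.61.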

Other observations

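Cluster 23, of 407 cells, matched no class, and its 10 leading genes are Oxt, Pcp4, Avp, Tacr1, Zic1, Galr1, Hhip, Nos1, Nnat and Trh. Pooled over WT and null cells of all libraries, it held Cbln4 at 50.2 CPM (from 136 UMIs), Cbln2 at 32.8 CPM and Nrxn3 at 411 CPM, and 13 of the 64 Cbln1 UMIs (20.3%). Its cells came from every library: 10, 115 and 53 in WT cortex, 5 and 71 in null cortex, 12, 2 and 81 in WT hippocampus and 2 and 56 in null hippocampus.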
